A study of Mus musculus with 6 samples.

Results

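Myc encodes a basic helix-loop-helix transcription factor that drives growth and proliferation, and in the colon it is a classical target of Wnt signalling through β-catenin and TCF. The gene sits alone in a wide stretch with few other coding genes, and in mouse and human this desert holds enhancers that act on Myc over long distances in a tissue-specific way. On its downstream side lies Pvt1, a long non-coding RNA gene whose own promoter can compete with Myc for enhancers, and on its upstream side lies an intestinal enhancer that is known in mice to be needed for efficient intestinal tumour formation. Accessible chromatin in this region was described here in mouse colon cancer organoids by ATAC-seq, in which the Tn5 transposase cuts open DNA and the reads over a region rise with its accessibility. The amount of Myc RNA or protein was not measured in these libraries, and which peak, if any, holds that enhancer was not determined. In such bulk samples, a region open in more cells and one more open per cell cannot be told apart. DNA copy number was not measured in these libraries either, and the counts were not corrected for it.

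The region was taken as all peaks of the deposited table that overlap chromosome 15 from 60900000 to 62900000 (mm9), with Myc at about 61816900 to 61822000. It held 61 of the 43020 peaks of the table. Of these, 2 lay within 5 kb of the Myc start and are called promoter peaks, 30 lay upstream and 29 downstream, on the Pvt1 side. In the order of genes in the RefSeq annotation of GRCm38.p6, A1bg is the nearest protein-coding gene on the upstream side, with 7 non-coding genes or pseudogenes between it and Myc. On the downstream side Gsdmc is the nearest, and 16 such genes lie between, of which Pvt1 is the first.

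The primary tumour libraries came from 3 tumour-derived organoid lines of the AKP genotype, grown from tumours that formed after AKP organoids had been placed by colonoscopy in the colon of C57Bl6 recipients, and passaged until cancer cells alone remained. The naive group held 3 libraries of the AKP organoids before transplantation. Both groups carry the AKP genotype, named here as the labels name it. All 3 lines share growth in a mouse, derivation from a tumour and further passages, and the effects of these cannot be told apart. The labels do not say whether the naive libraries came from separate cultures, so p-values measure only the spread between these libraries. Libraries held between 1916819 and 3594735 reads in peaks for the tumour-derived lines and between 1185356 and 5987545 for naive organoids. After scaling, 1 read was worth between 0.184 and 0.858 CPM, the normalized count relative to the library's scaled total over tested peaks. The defining markers of colon epithelium could not be checked, because the table names no genes.

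Accessibility at the Myc promoter itself was not called different between the groups, and its levels overlapped at both of its peaks. The stronger peak, from 61814768 to 61817388, spans the Myc start and is 2620 bp wide, the widest of the region. It had 109, 68.8 and 97.2 CPM in the tumour-derived lines, against 73.8, 109 and 76.9 CPM in naive AKP organoids. The groups overlapped fully, with the lowest library among the tumour lines and nearly equal highest libraries in both. The mean was 91.8 ± 20.8 CPM in tumour-derived lines and 86.7 ± 19.7 CPM in naive AKP organoids (± SD over 3 libraries each), a log2 fold change of 0.07 (SE 0.22, 95% interval -0.38 to 0.52; edgeR, adjusted p = 0.880). As a ratio of tumour-derived lines to naive organoids the interval runs from 0.77-fold to 1.43-fold, and differences within it are not excluded.

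The other promoter peak lies inside the gene, from 61818573 to 61819480. Its values were 18.8, 18.5 and 28.5 CPM in tumour-derived lines and 17.2, 25.5 and 20.1 CPM in naive AKP organoids. These ranges also overlapped, and the log2 fold change was 0.03 (SE 0.33, 95% interval -0.64 to 0.70; edgeR, adjusted p = 0.967). Just outside the promoter rule, 5.8 kb downstream of the start, a peak from 61822657 to 61824168 had 52.5, 20.6 and 36.5 CPM in tumour-derived lines and 21.4, 27.7 and 28.2 CPM in naive AKP organoids. Primary tumour replicate 2 lay below every naive library there, and the other lines above (log2 fold change 0.50, SE 0.31; edgeR, adjusted p = 0.306). The direction of the 2 promoter peaks was not stable, since leaving out single libraries gave log2 fold changes from -0.07 to 0.29 for the stronger and from -0.18 to 0.22 for the weaker, and the fit on chromosome 15 alone gave -0.04 for the weaker.

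**Figure D1:**
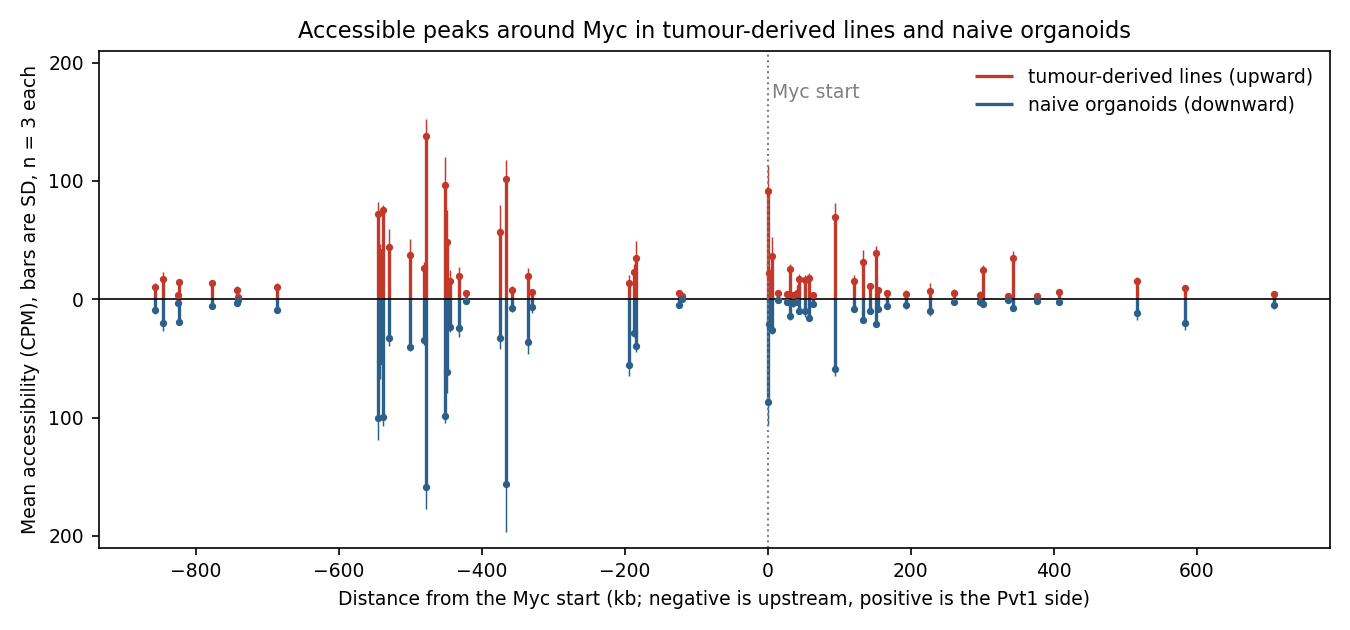
Mean accessibility of the 61 peaks (CPM, bars are SD, n = 3 libraries per group) against distance from the Myc start in kb, with tumour-derived lines drawn upward and naive organoids downward. The tallest upstream peaks lie between 365.8 and 545.2 kb from the start, and most downstream peaks are weaker than these.

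Away from the promoter, the peaks called higher lay downstream and those called lower lay upstream, a split that did not hold under every alternative. Of the 61 peaks, 47 passed the filter on low counts, and 5 of these were called at an adjusted p under 0.05 (10.6%), against 14.4% of all 36179 tested peaks, so the share of called peaks in the region was not above that of the table. All 3 peaks called higher lay downstream, out of 20 tested there, where 8% of all tested peaks were called higher. Both peaks called lower lay upstream, out of 25 tested there, where 6.4% of all tested peaks were called lower. Counts this small are not read as an excess over the background, and the sums of the sides are given further on. The number of calls was 8 of 47 tested without primary tumour replicate 1, 3 of 53 without primary tumour replicate 2 and 3 of 52 without naive replicate 2, where 14.5%, 9.76% and 5.82% of all tested peaks were called in the same fits. An upstream peak from 61439928 was called higher without primary tumour replicate 3, another from 61696158 was called higher without a filter, and a downstream peak from 62400402 was called lower with abundance-trended offsets (edgeR).

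Among the 47 tested peaks, the largest fold change was found 301.4 kb downstream of the Myc start, from 62118302 to 62119291. This peak held 67, 52 and 57 reads in tumour-derived lines and 3, 14 and 14 reads in naive AKP organoids. On the normalized scale these were 19.1, 27.5 and 27.0 CPM in tumour-derived lines, against 2.57, 2.57 and 5.98 CPM in naive AKP organoids. Every tumour line lay above every naive library. The mean was 24.6 ± 4.72 CPM in tumour-derived lines and 3.71 ± 1.97 CPM in naive AKP organoids (± SD over 3 libraries each), a 6.57-fold difference (log2 fold change 2.72, SE 0.45; edgeR, adjusted p = 0.000208).

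A neighbour 342.9 kb downstream, from 62159842 to 62160796, was also called higher. Its values were 36.8, 39.7 and 27.0 CPM in tumour-derived lines and 8.58, 8.82 and 4.70 CPM in naive AKP organoids. All tumour lines stood far above all naive libraries. The mean of 34.5 ± 6.63 CPM in tumour-derived lines against 7.37 ± 2.31 CPM in naive AKP organoids (± SD over 3 libraries each) gave a 4.64-fold difference (log2 fold change 2.22, SE 0.36; edgeR, adjusted p = 0.000152).

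The third peak that rose lay 151.7 kb downstream, from 61968559 to 61969567, and was open in both groups. It had 39.6, 44.5 and 33.2 CPM in tumour-derived lines and 21.4, 21.3 and 20.9 CPM in naive AKP organoids. The naive libraries were nearly equal, and every tumour line lay above them. The difference was 1.84-fold (log2 fold change 0.88, SE 0.27; edgeR, adjusted p = 0.0310). This call was lost without primary tumour replicate 2 (adjusted p = 0.118) and without naive replicate 1, 2 or 3 (0.0662, 0.117 and 0.0975, edgeR), with log2 fold changes between 0.78 and 0.99 over all libraries left out in turn.

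Upstream, the clearest loss was found 194.6 kb from the Myc start, at a peak from 61621342 to 61622325. It held 71, 13 and 29 reads in tumour-derived lines and 67, 346 and 107 reads in naive AKP organoids. Scaled to depth, these were 20.2, 6.88 and 13.8 CPM in tumour-derived lines and 57.5, 63.6 and 45.7 CPM in naive AKP organoids. The highest tumour line stood below the lowest naive library, and replicate 2 had the lowest value of the lines. The mean fell to 13.6 ± 6.69 CPM in tumour-derived lines, against 55.6 ± 9.09 CPM in naive AKP organoids (± SD over 3 libraries each), a 3.94-fold lower level (log2 fold change -1.98, SE 0.31; edgeR, adjusted p = 0.000132). Its nearest tested neighbours on the Myc side were not called. The peaks 187.1 and 184.8 kb upstream, from 61629268 and from 61631079, had log2 fold changes of -0.31 and -0.18 (edgeR, adjusted p = 0.558 and 0.752).

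A strong peak 365.8 kb upstream, from 61450263 to 61451060, was called lower by a narrow margin. It had 118, 99.0 and 86.8 CPM in tumour-derived lines and 170, 188 and 111 CPM in naive AKP organoids. The groups overlapped, since naive replicate 3 lay below primary tumour replicate 1. The log2 fold change was -0.62 (SE 0.21; edgeR, adjusted p = 0.0454). The call was lost with DESeq2 size factors (adjusted p = 0.0506), without a filter (0.0634), with abundance-trended offsets (0.10), and without primary tumour replicate 2 or 3 or naive replicate 1 or 2 (0.126, 0.212, 0.133 and 0.236, edgeR).

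**Figure D2:**
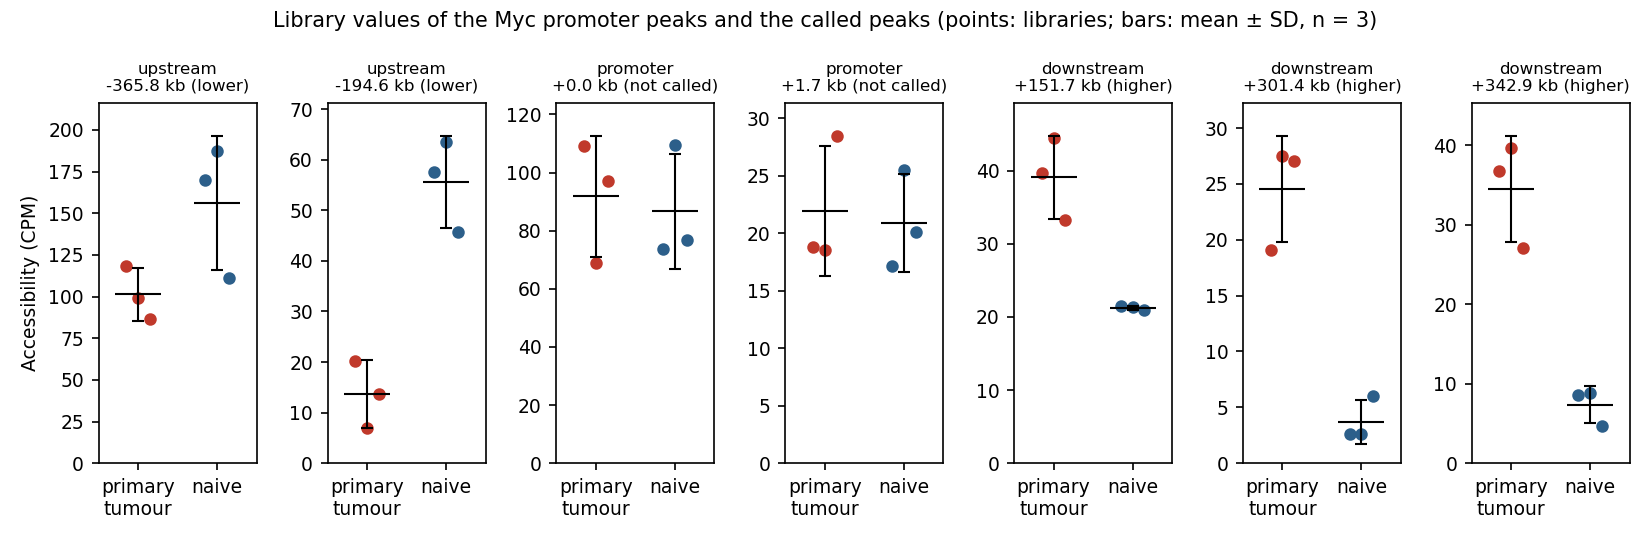
Accessibility in CPM of the 2 Myc promoter peaks and the 5 called peaks in each library, ordered by distance from the Myc start, with tumour-derived lines left of naive organoids (bars are mean ± SD, n = 3). The promoter peaks overlap between groups, and the 3 downstream peaks are separated with tumour-derived lines higher.

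Several peaks lay just outside the threshold and are given as values only, chosen after their values were seen. Among them, a peak 334.9 kb upstream, from 61481148 to 61481957, had 27.1, 17.5 and 14.2 CPM in tumour-derived lines and 36.0, 46.5 and 25.6 CPM in naive AKP organoids (log2 fold change -0.87; edgeR, adjusted p = 0.0630). Close to the strong peak just described, another from 61439928 to 61441639 had the opposite sign, with 65.9, 73.6 and 29.9 CPM in tumour-derived lines and 31.7, 24.8 and 42.3 CPM in naive AKP organoids (log2 fold change 0.79; edgeR, adjusted p = 0.0773). Primary tumour replicates 1 and 2 were high there and replicate 3 was not. The peaks at 777.3 kb upstream and 583.5 kb downstream had log2 fold changes of 1.25 and -1.08 (edgeR, adjusted p = 0.0667 and 0.0691), each against the tendency of its side, and in both the groups did not overlap.

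The strongest peaks of the region were upstream and did not pass the test, apart from the one at 365.8 kb. The tallest, 478.2 kb upstream from 61337830 to 61338684, had 152, 123 and 138 CPM in tumour-derived lines and 160, 177 and 140 CPM in naive AKP organoids (log2 fold change -0.21, SE 0.18; edgeR, adjusted p = 0.519). The third tallest, 452.0 kb upstream from 61363580 to 61364907, had 108, 112 and 69.7 CPM in tumour-derived lines and 92.7, 97.0 and 105 CPM in naive AKP organoids (log2 fold change -0.03, SE 0.21; edgeR, adjusted p = 0.957). On the downstream side the tallest peak lay 93.6 kb from the start, from 61910529 to 61911489, with 81.9, 68.8 and 57.4 CPM in tumour-derived lines and 54.9, 56.8 and 65.3 CPM in naive AKP organoids (log2 fold change 0.24, SE 0.22; edgeR, adjusted p = 0.538). These distal peaks were open in all 6 libraries. Levels are summed over a peak and not divided by its width, so they do not rank peaks per base.

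**Figure D3:**
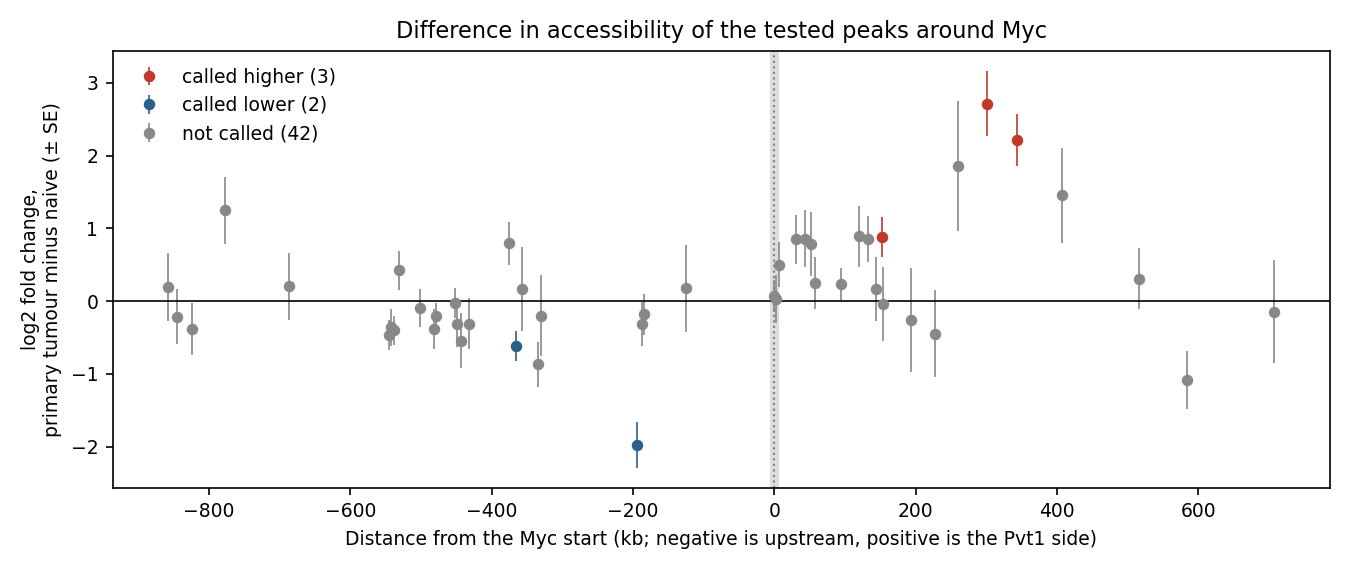
Log2 fold change of the 47 tested peaks, primary tumour minus naive, with SE bars, against distance from the Myc start in kb; the grey band marks 5 kb around the start. The 3 peaks called higher lie downstream, the 2 called lower lie upstream, and the promoter peaks lie at 0.07 and 0.03.

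Summed over a side, the downstream peaks had more signal in the tumour lines, and the upstream sum did not pass the test. Among the 20 tested downstream peaks, 15 had a positive log2 fold change, with a median of 0.64. Among the 25 tested upstream peaks, 18 had a negative log2 fold change, with a median of -0.21. Over all tested peaks 49.7% were positive, with a median of -0.01. The filter on low counts keeps a peak that is high enough in the 3 libraries of either group alone. A weak peak can thus be tested because it is high in that group, so these signs and medians are a description only. On the rest of chromosome 15, 911 of 1631 were positive, with a median of 0.08. In the next window of 2 Mb on the Pvt1 side 21 of 27 were positive, with a median of 0.58. In the window before, 33 of 54 were positive, with a median of 0.13. Over all 29 downstream peaks, tested or not, 9 had all 3 tumour lines above all 3 naive libraries, where 14.8% of all peaks did, and 1 had them below. Over the 30 upstream peaks 3 were separated upward and 4 downward, where 13.8% of all peaks were separated downward.

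The 9 downstream peaks with separated groups were the 3 called ones, 5 more that were tested and not called, and 1 that was too weak to be tested. Of the 5, the nearest to Myc lay 31.1 kb from its start, from 61848009 to 61849468, with 30.2, 24.9 and 21.8 CPM in tumour-derived lines and 10.3, 13.8 and 17.9 CPM in naive AKP organoids (log2 fold change 0.85, SE 0.34; edgeR, adjusted p = 0.0941). The next, 43.0 kb away from 61859888 to 61861640, had 19.7, 20.1 and 12.8 CPM in tumour-derived lines and 9.44, 9.37 and 10.2 CPM in naive AKP organoids (log2 fold change 0.86, SE 0.39; edgeR, adjusted p = 0.153). In both, replicate 3 was the lowest of the tumour lines. At 120.2 and 133.0 kb the log2 fold changes were 0.89 and 0.85 (edgeR, adjusted p = 0.163 and 0.0709), close to that of the called peak at 151.7 kb. The farthest of the 5, 407.0 kb away from 62223919 to 62224557, held 33, 9 and 11 reads in tumour-derived lines and 2, 9 and 9 reads in naive AKP organoids (log2 fold change 1.45, SE 0.66; edgeR, adjusted p = 0.146). Not every downstream peak had this sign, and 5 of the 20 tested were negative. Those at 193.2 and 227.0 kb had log2 fold changes of -0.26 and -0.44 (edgeR, adjusted p = 0.863 and 0.703), with at most 68 reads in any library. At 583.5 kb the log2 fold change was -1.08 (edgeR, adjusted p = 0.0691), with all tumour lines below all naive libraries. At 153.8 and 707.5 kb it was -0.04 and -0.14 (edgeR, adjusted p = 0.973 and 0.932).

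On the upstream side the dense group of peaks between 530.5 and 545.2 kb from Myc had negative log2 fold changes at 3 of its 4 peaks, and none of the 4 passed the test. The peak at 545.2 kb, from 61270226 to 61271727, had 83.6, 66.1 and 66.9 CPM in tumour-derived lines and 111, 111 and 79.0 CPM in naive AKP organoids (log2 fold change -0.47, SE 0.21; edgeR, adjusted p = 0.140). Its neighbour at 538.1 kb, from 61277677 to 61278802, had 72.2, 73.6 and 80.2 CPM in tumour-derived lines and 96.9, 93.1 and 108 CPM in naive AKP organoids. These groups did not overlap, and the log2 fold change was -0.40 (SE 0.20; edgeR, adjusted p = 0.184). The peak at 530.5 kb, from 61285212 to 61286411, had the other sign, with 61.0, 38.6 and 33.2 CPM in tumour-derived lines and 27.5, 32.0 and 39.7 CPM in naive AKP organoids (log2 fold change 0.42, SE 0.27; edgeR, adjusted p = 0.334).

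The summed downstream signal was 462, 464 and 389 CPM in tumour-derived lines and 285, 271 and 311 CPM in naive AKP organoids. All tumour lines lay above all naive libraries. The exact permutation test, 2-sided, gave p = 0.1, the smallest p that 3 against 3 libraries can give. A test across the genome, added after these values were seen, summed the counts over each side of every window of 2 Mb, cut as Myc cuts its own window. In it the downstream side was 1.56-fold higher in tumour-derived lines (log2 fold change 0.64, SE 0.11; edgeR, adjusted p = 0.00528), where 19% of 1435 sides were called, 11.2% higher and 7.74% lower. Its log2 fold change stayed between 0.56 and 0.72 when any library was left out.

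The upstream sum was 1143, 927 and 835 CPM in tumour-derived lines and 1171, 1218 and 1106 CPM in naive AKP organoids. Primary tumour replicate 1 lay within the naive range and replicates 2 and 3 below it. The same test gave a log2 fold change of -0.22 (SE 0.10; edgeR, adjusted p = 0.137), and -0.33 (adjusted p = 0.00239) without primary tumour replicate 1. The promoter sum was 128, 87.3 and 126 CPM in tumour-derived lines and 90.9, 135 and 96.9 CPM in naive AKP organoids, with groups that overlapped (exact permutation test, 2-sided, p = 1).

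**Figure D4:**
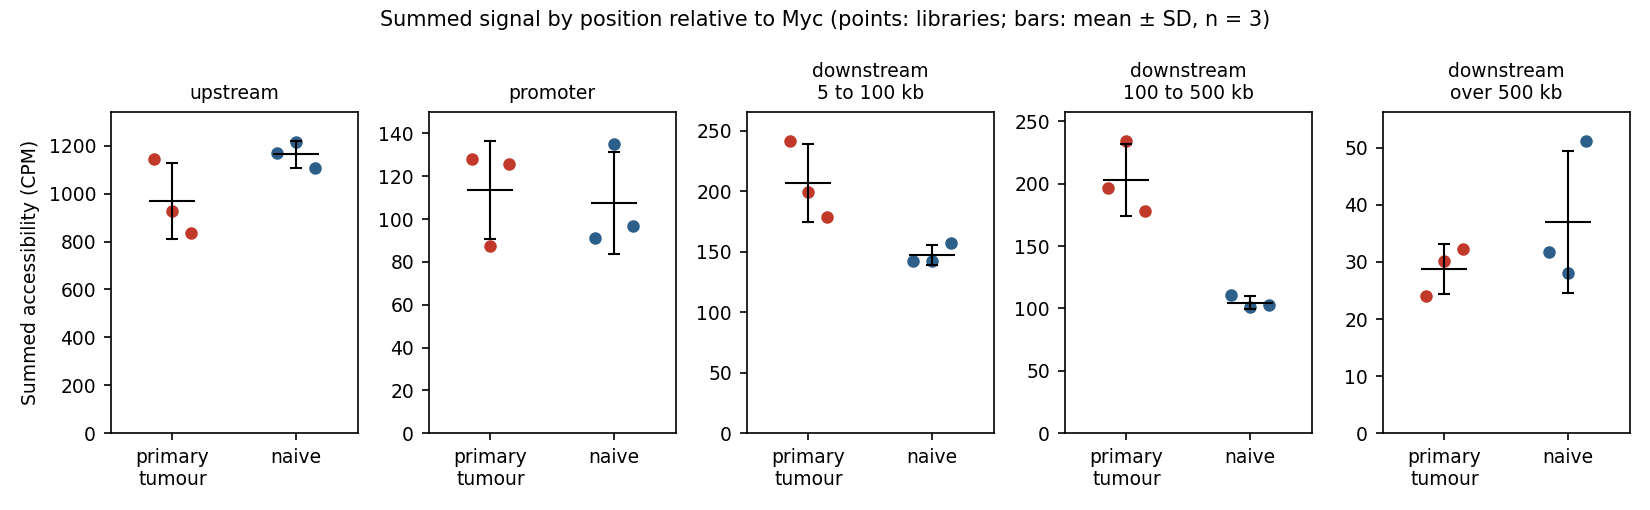
Summed accessibility (CPM) of peaks by position relative to Myc in each library, tumour-derived lines left of naive organoids (bars are mean ± SD, n = 3). Downstream sums at 5 to 100 kb and at 100 to 500 kb are separated between the groups, and the other sums overlap.

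Within the downstream side, the sums were also taken by distance. Peaks at 100 to 500 kb summed to 196, 234 and 178 CPM in tumour-derived lines and 111, 101 and 102 CPM in naive AKP organoids, a difference of 0.95 on the log2 scale. Peaks at 5 to 100 kb summed to 242, 199 and 179 CPM in tumour-derived lines and 142, 142 and 157 CPM in naive AKP organoids, a difference of 0.48. In both classes the groups did not overlap (exact permutation test, 2-sided, p = 0.1 each). The 3 peaks beyond 500 kb summed to 24.0, 30.2 and 32.3 CPM in tumour-derived lines and 31.7, 28.1 and 51.2 CPM in naive AKP organoids, and these overlapped. The difference between the distance classes was not tested.

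The balance between the sides separated the groups. The downstream sum was 0.404, 0.50 and 0.466 of the upstream sum in the tumour-derived lines, against 0.243, 0.223 and 0.281 of it in naive AKP organoids. This ratio is taken within a library and so does not depend on depth scaling. Its test across windows was also added after the values were seen. The difference of the log2 ratio was 0.88 (SE 0.12; limma, adjusted p = 8.01e-05, over 493 windows with at least 10 peaks on each side), where 30.2% of windows were called. Such imbalances were therefore common in the genome, and the one around Myc ranked 11 of 493 by p. The 3 called downstream peaks were not needed for it. Without them the difference was 0.68 (adjusted p = 0.000686, limma), and the downstream sums were 366, 352 and 302 CPM in tumour-derived lines and 252, 239 and 279 CPM in naive AKP organoids. The upstream peaks called lower stayed in the upstream sum, so the ratio was not tried without all called peaks.

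The sides also differ in strength, with a median level per peak of 8.48 CPM downstream and 23.9 CPM upstream, and in median width, 590 bp downstream and 812.5 bp upstream. With offsets that follow peak abundance in each library, the difference of the log2 ratio was 0.73 (adjusted p = 0.000152, limma). Over the tested peaks, the medians of the log2 fold changes were 0.61 downstream and -0.24 upstream under those offsets.

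The window as a whole was not called. The counts of all 61 peaks gave a log2 fold change of 0.02 (SE 0.08; edgeR, adjusted p = 0.885), where 15.2% of 1016 windows were called. The log2 ratio of the window to the rest of chromosome 15 was -4.79, -5.09 and -5.07 in tumour-derived lines and -4.91, -4.93 and -4.89 in naive AKP organoids (exact permutation test, 2-sided, p = 0.4). On the rest of chromosome 15 the median log2 difference from the naive mean was 0.07, 0.11 and 0.10 in the tumour lines and between -0.01 and 0.03 in the naive libraries. The next window of 2 Mb on the Pvt1 side, with 35 peaks, was also higher in tumour-derived lines (log2 fold change 0.66, SE 0.13; edgeR, adjusted p = 0.0191), and the one before the Myc window, with 65 peaks, had a log2 fold change of 0.07 (SE 0.06; edgeR, adjusted p = 0.425).

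The pattern of the stronger promoter peak over the 6 libraries was compared with that of the other tested peaks by Pearson's r of log2(CPM + 1), as a description. The peak 5.8 kb downstream was most like it (r = 0.78), followed by the tallest upstream peak at 478.2 kb (r = 0.59) and the other promoter peak (r = 0.59). The least alike was a weak peak 153.8 kb downstream, from 61970691 to 61971073 (r = -0.94), with 6.27, 10.6 and 6.64 CPM in tumour-derived lines and 11.2, 5.70 and 8.11 CPM in naive AKP organoids. None of the 5 called peaks was among the 3 most alike. They were called for a group difference that the promoter peak did not show, so this comparison cannot tell whether they follow it. All values share the scaling of their library.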

How the data were processed

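The file is the authors' table of raw read counts for each peak and library, deposited without normalization. The submitters' processing notes name Bowtie, Picard, SAMtools, MACS2, bedtools and mm9, with no versions or roles. Row names describe 1 peak set over all samples. How peaks were chosen, duplicates handled and reads shifted is not stated in the labels used here. Peak coordinates are printed as the table gives them.

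The main test was edgeR 4.0.16 in R 4.3.3 (filterByExpr, TMM, robust quasi-likelihood F test, 2-sided, Benjamini-Hochberg adjustment over 36179 tested peaks), limma 3.58.1 and, as an alternative, DESeq2 1.42.0. CPM are relative to the TMM-scaled total of tested peaks. SEs come from the fold change and F. Window and side sums were scaled by their own TMM factors, over sums of at least 10 peaks. The tests were tried on simulated counts. Some peaks simulated to differ were not called, and the pass mark was lowered after the first run. Peaks not called may therefore still differ. Depth is given with the libraries. Counting error limits weak peaks most.

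The region, its classes and the tests were chosen with earlier results of these data known. Named by rule were the promoter peaks, all called peaks, the 3 strongest tested peaks per side, and the 3 most and 1 least alike to the stronger promoter peak. Alternatives were other scalings, filters, offsets, tests, a replicate block and each library left out. No sequence was searched for motifs.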

Additional observations from a re-analysis of the deposited data

How the results depend on the processing

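The peaks at 301.4 and 342.9 kb downstream and at 194.6 kb upstream were called in the same direction in every alternative tried. With 1 library left out, the region had 3 to 8 called peaks, 2 to 5 higher and 1 to 5 lower, and 0 at the promoter, where 5.82% to 14.5% of all tested peaks were called in those fits. With all libraries edgeR and DESeq2 both called 0 promoter peaks, and 0 had an unadjusted p under 0.05 in edgeR. With DESeq2 size factors 4 of 47 tested peaks were called, 1 of them lower, where 14.4% of all tested peaks were called. Without a filter 5 of 61 were called, 1 of them lower, where 12.2% of all tested peaks were. With a replicate block 4 of 47 were called, 2 of them higher, where 9.78% of all tested peaks were. Under the block the peak at 151.7 kb had an adjusted p of 0.0716 (edgeR). For the ratio of the sides the block gave 0.88 (adjusted p = 0.000100, limma). It changed no other call. Same-numbered libraries had deviations correlated at -0.24, -0.11 and 0.005, so the numbers were not taken as pairs.

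Values near 0 changed sign. For the whole window, the log2 fold change was -0.0067 over peaks that passed the filter, and -0.067 to 0.080 with 1 library left out. For single peaks, abundance-trended offsets gave 0.023 at 478.2 kb and 0.14 at 452.0 kb upstream. Total-count scaling gave 0.024 at the latter peak and 0.0042 at 153.8 kb downstream, and the stricter filter 0.0050 at 452.0 kb. Leaving out 1 library gave -0.15 to 0.17 at 452.0 kb and -0.31 to 0.18 at 153.8 kb. It gave -0.073 to 0.29 at the stronger promoter peak and -0.18 to 0.22 at the other, for which the fit on chromosome 15 alone gave -0.038. The upstream sum ran from -0.33 to -0.15. The cause was not tested. The downstream sum and the ratio of the sides kept their call in the alternatives run for each (highest adjusted p 0.0419, edgeR, and 0.00427, limma). For the downstream sum these were other scalings, DESeq2, the block, filtered peaks and each library left out. For the ratio they were the block, filtered peaks, abundance-trended offsets, the 3 peaks called higher left out and each library left out. The side tests were added after the data were seen. Peaks with few reads, 14 of 61, were not tested.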

Other observations

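Some weak peaks that did not pass the filter were separated between the groups. A peak 13.5 kb downstream of the Myc start, from 61830432 to 61830841, had 18, 8 and 14 reads in tumour-derived lines and 0, 9 and 2 reads in naive AKP organoids, or 5.13, 4.23 and 6.64 CPM in tumour-derived lines and 0, 1.65 and 0.854 CPM in naive AKP organoids. Another 421.7 kb upstream, from 61394863 to 61395249, had 17, 13 and 7 reads in tumour-derived lines and 2, 9 and 4 reads in naive AKP organoids. Scaled, these were 4.85, 6.88 and 3.32 CPM in tumour-derived lines and 1.72, 1.65 and 1.71 CPM in naive AKP organoids. One more, 120.4 kb upstream from 61696158 to 61696496, had 11, 1 and 9 reads in tumour-derived lines and 0, 2 and 0 reads in naive AKP organoids. Scaled, these were 3.14, 0.529 and 4.27 CPM in tumour-derived lines and 0, 0.367 and 0 CPM in naive AKP organoids. Its separation rests on 1 read in primary tumour replicate 2. None of the 3 entered the edgeR test of filtered peaks. Without a filter, the peak at 120.4 kb upstream was called higher by edgeR and the others were not. The values rest on few reads.

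Peaks were spread unevenly over the desert. The longest gaps between neighbouring peaks were 140.4 kb, from 61129841 to 61270226, and 134.5 kb, from 61486831 to 61621342. The stretch of 118.3 kb just before the Myc promoter, from 61696496 to 61814768, held no peak of the table either. The last peak ended at 62524789, and no peak lay between it and the end of the region at 62900000.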
